A study of Mus musculus with 4 samples.

Results

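Genes of the thioredoxin system, the glutathione system and their regulator NRF2 were examined in RNA-Seq libraries from lung tumor-infiltrating CD4+ T cells. The 43 genes were taken by symbol from a list chosen with earlier results of these data known. All 43 were present among the 25239 genes listed and passed the expression filter that left 13919 genes for testing. They were read as 7 arms: the thioredoxin system, the peroxiredoxins, glutathione synthesis and reduction, the glutathione peroxidases, the glutathione transferases, NRF2 with its regulators and targets, and a group holding the superoxide dismutases, catalase and glucose-6-phosphate dehydrogenase.

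The study compared C57BL/6 mice labelled WT, described as wild-type littermates, with CD4/ALK4-KO mice of the genotype CD4CreERT2+/-/Acvr1bfl/fl, with 2 biological replicates of each. In CD4/ALK4-KO mice tamoxifen activates Cre, which is driven by the *Cd4* promoter, and thereby deletes *Acvr1b*, the gene of the activin receptor ALK4. Both groups received 500000 cells of LLC-OVA, an ovalbumin-expressing Lewis lung carcinoma line, into a vein, and per the labels lung tumors were taken after 18 to 22 days, whereas the methods give a somewhat earlier range. The leukocyte fraction of a Percoll gradient was enriched for CD4+ T cells with a kit. Whether WT mice also received tamoxifen, and whether a library held one animal or a pool, is not given in the sources used here.

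Thioredoxins are small proteins that reduce disulfide bonds in other proteins and are kept reduced by thioredoxin reductases with NADPH. Peroxiredoxins use thioredoxin to destroy peroxides, whereas glutathione peroxidases and transferases use the tripeptide glutathione to destroy peroxides or to tag reactive compounds. The transcription factor NRF2 (*Nfe2l2*) is held back by KEAP1 and, once released by oxidative stress, binds antioxidant response elements and switches on many of these genes. In T cells, thioredoxin and glutathione are known to be needed for growth after activation.

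The deposited counts summed to between 11823908 and 13943237 per library. Levels are given as CPM, counts scaled to a fixed library total after adjustment by the TMM method of edgeR. Fold changes are those of CD4/ALK4-KO against WT on this scale, with standard errors (SE), and a gene was called at an adjusted p under 0.05 in edgeR's quasi-likelihood test over all 13919 genes. The targeted gene *Acvr1b* had 426 and 342 counts in WT and 322 and 445 counts in CD4/ALK4-KO (log2 fold change 0.16, SE 0.24, edgeR adjusted p = 0.66), so the genotypes could not be told apart by their target, and each direction below is between libraries named by their labels. *Cd4* had 759 and 649 counts in WT against 3654 and 4033 counts in CD4/ALK4-KO. A list of 16 T cell markers summed to 513 to 564 CPM in WT and to 2783 to 2883 CPM in CD4/ALK4-KO, and all 16 were called higher. Markers of other cells were abundant in all 4 libraries, with summed levels of 6301 to 7529 CPM for 11 macrophage markers and of 3965 to 7307 CPM for 7 fibroblast markers. Summed macrophage markers thus exceeded summed T cell markers in every library, though in CD4/ALK4-KO this rested on *Lyz2*. That gene alone made up 4278 and 5687 CPM of the macrophage sums in WT and 4758 and 4227 CPM in CD4/ALK4-KO. In bulk samples of this kind fewer cells of a type and less RNA per cell cannot be told apart.

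As a group, the antioxidant genes were lower in CD4/ALK4-KO, which describes a list chosen with earlier results of these data known. Of the 43 genes, 17 (39.5%) were called lower and 2 (4.65%) higher, while 24 did not pass the test. Over all genes tested, 15.4% were called lower and 17.4% higher, 32.8% in either direction. The median log2 fold change was -0.58 over the 43 genes and -0.01 over all genes tested. The CPM of both CD4/ALK4-KO libraries lay below those of both WT libraries for 32 of the 43 genes and above them for 4, whereas this held for 34.0% and 32.7% of all genes tested. With either WT library left out fewer of the 43 genes were called lower, and without WT replicate 1 neither *Txnip* nor *Slc7a11* was called. Leaving out either CD4/ALK4-KO library gave more lower calls. Lower calls over all genes tested fell and rose in the same cases. The median log2 fold change over the 43 genes then ran from -0.58 to -0.47.

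**Figure D1:**
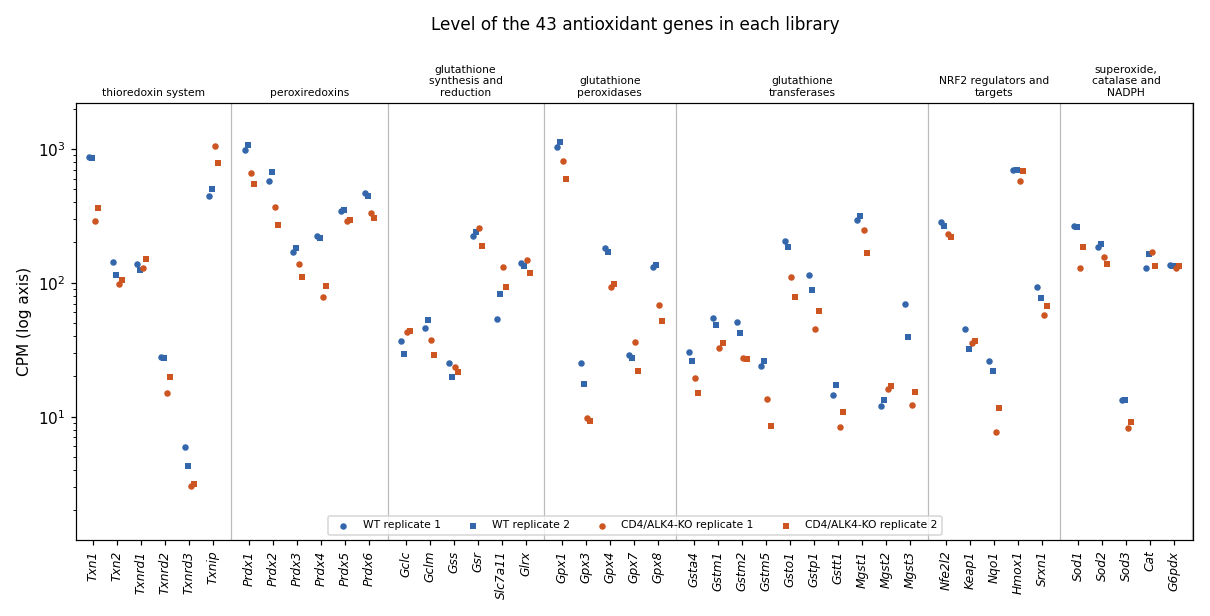
Level of each antioxidant gene in CPM (log axis) in every library, grouped by arm, with circles for replicate 1 and squares for replicate 2 of WT (blue) and CD4/ALK4-KO (orange). *Txn1* fell from 867 CPM on average in WT to 326 CPM in CD4/ALK4-KO, *Txnip* moved the opposite way, and the libraries of *Gss*, *Gsr*, *Glrx* and *Cat* were intermixed.

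The arms are described separately. The glutathione peroxidases had 4 of 5 genes called lower (median log2 fold change -0.88), the glutathione transferases 7 of 10 (-0.76) and the peroxiredoxins 3 of 6 (-0.65). The thioredoxin system had 1 gene called lower and 1 called higher of 6 (median -0.51). In the NRF2 arm 1 of 5 genes was called lower (median -0.29), and in the group of superoxide dismutases, catalase and glucose-6-phosphate dehydrogenase 1 of 5 (median -0.38). Glutathione synthesis and reduction had no gene called lower by edgeR (0 of 6, 1 at an unadjusted p under 0.05, and 0 by DESeq2) and 1 called higher, with a median of -0.02 that lay on either side of 0 as single libraries were left out. These medians describe the arms, and the differences between arms were not tested.

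**Figure D2:**
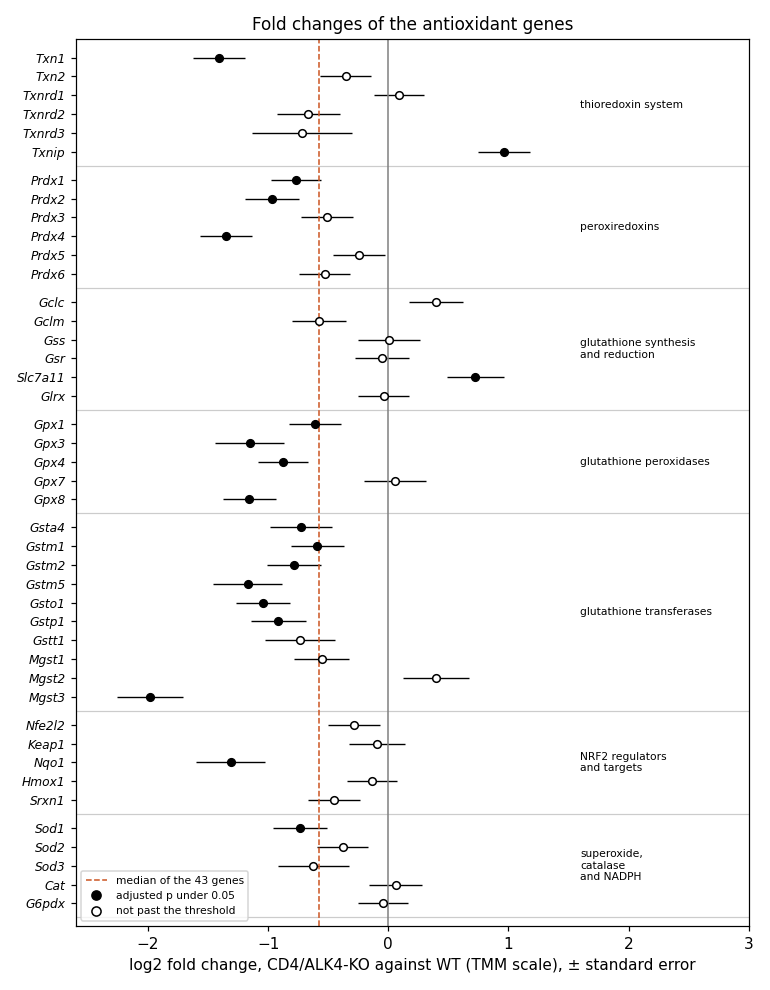
Log2 fold change of CD4/ALK4-KO against WT for each antioxidant gene with its standard error from edgeR, grouped by arm, where filled points passed an adjusted p of 0.05 and open points did not. The dashed line marks the median of -0.58, and *Mgst3* (-1.98) and *Txnip* (0.96) lie at the ends of the range.

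In the thioredoxin system, the cytosolic thioredoxin gene *Txn1* (chromosome 4, 57943373 to 57956411 on GRCm38) had 876 and 858 CPM in WT and 287 and 364 CPM in CD4/ALK4-KO. Both CD4/ALK4-KO libraries were thus well below both WT libraries, and the log2 fold change was -1.41 (SE 0.22, edgeR adjusted p = 3.1e-05), a level 0.376 times that of WT. It remained called in each of the 12 other ways of processing the counts that were tried. Among these, scaling to T cell receptor complex genes called all 43 genes lower and so could not remove a lower call. *Txnip* (chromosome 3, 96557957 to 96561883), which encodes the arrestin-like protein that binds and inhibits thioredoxin and limits glucose uptake, had 442 and 503 CPM in WT and 1053 and 786 CPM in CD4/ALK4-KO. The groups did not overlap, and *Txnip* rose with a log2 fold change of 0.96 (SE 0.22, edgeR adjusted p = 0.0017). Without WT replicate 1 its log2 fold change was 0.86 and no longer called (edgeR adjusted p = 0.11). Of its 75-base transcript stretches, 13.8% also lie in the antisense gene *Gm15441*, and without strand their reads cannot be told apart.

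Since both genes moved in opposite directions, their counts were also set against each other within each library, a ratio that no scaling of the libraries can change. The pair was chosen after its values were seen and the ratio was not tested. *Txnip* had 0.505 and 0.586 counts per *Txn1* count in WT but 3.67 and 2.16 in CD4/ALK4-KO. *Txn1* passed from the more abundant to the less abundant of the pair by counts. Per length of transcript, *Txn1* had the highest level of the 43 genes in WT, at 825 RPKM (CPM per kilobase of exon), and stood at rank 3 in CD4/ALK4-KO with 310 RPKM, behind *Gpx1* (488 RPKM) and *Hmox1* (360 RPKM) and close to *Txnip* (294 RPKM).

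None of the 3 reductase genes was called by edgeR's quasi-likelihood test with TMM scaling. *Txnrd1*, the cytosolic selenoprotein that reduces thioredoxin, had 137 and 124 CPM in WT and 128 and 150 CPM in CD4/ALK4-KO, with overlapping groups and a log2 fold change of 0.09 (SE 0.21, edgeR adjusted p = 0.79). Within the libraries, *Txn1* thus had 6.38 and 6.92 counts per *Txnrd1* count in WT and 2.25 and 2.43 in CD4/ALK4-KO. The mitochondrial pair was lower in both CD4/ALK4-KO libraries without passing the test: *Txn2* had a log2 fold change of -0.35 (SE 0.21) and the mitochondrial reductase gene *Txnrd2* one of -0.67 (SE 0.26, edgeR adjusted p = 0.053). *Txnrd2* lay at the threshold, since it was called lower by edgeR's likelihood ratio test (adjusted p = 0.048), with upper quartile scaling (edgeR adjusted p = 0.042) and when CD4/ALK4-KO replicate 2 was omitted (edgeR adjusted p = 0.0075). *Txnrd3*, a reductase best known from testis, was the least abundant member, with 36 to 81 counts in a library, and its log2 fold change of -0.72 (SE 0.42) was not called.

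All 6 peroxiredoxins were lower in both CD4/ALK4-KO libraries than in either WT library, as were 34.0% of all genes tested. Of the 6 peroxiredoxins, 3 passed the test, where 15.4% of all genes tested were called lower. *Prdx4*, the peroxiredoxin of the endoplasmic reticulum, had 222 and 218 CPM in WT and 78.2 and 93.9 CPM in CD4/ALK4-KO. It changed most among them, with a log2 fold change of -1.35 (SE 0.22, edgeR adjusted p = 5.0e-05), and was called in all 12 other settings. The cytosolic *Prdx1* was the most abundant by CPM, with 980 and 1076 CPM in WT against 659 and 550 CPM in CD4/ALK4-KO (log2 fold change -0.77, SE 0.21, edgeR adjusted p = 0.0072). *Prdx2*, also cytosolic and a major protein of red blood cells, had 576 and 677 CPM in WT against 369 and 270 CPM in CD4/ALK4-KO (log2 fold change -0.97, SE 0.22, edgeR adjusted p = 0.0020). The calls of *Prdx1* were lost without WT replicate 1 (edgeR adjusted p = 0.091) and without WT replicate 2 (0.15), and that of *Prdx2* without WT replicate 2 (0.073).

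The other peroxiredoxins moved less. The mitochondrial *Prdx3* had a log2 fold change of -0.51 (SE 0.22, edgeR adjusted p = 0.072) and *Prdx6*, which uses glutathione in place of thioredoxin, one of -0.53 (SE 0.21, edgeR adjusted p = 0.059). *Prdx5*, found in several compartments, differed least, with 342 and 350 CPM in WT and 290 and 295 CPM in CD4/ALK4-KO (log2 fold change -0.24, SE 0.21). *Prdx4* counted 0.650 and 0.622 times as many reads as *Prdx5* in WT and 0.270 and 0.318 times as many in CD4/ALK4-KO, a pair chosen after its values were seen. For erythroid cells, 7 markers summed to 2147 and 4692 CPM in WT and to 3062 and 1232 CPM in CD4/ALK4-KO, so that the groups overlapped where those of *Prdx2* did not. *Hbb-bt* was at 0 in every library. The heme synthesis gene *Alas2* alone made up 1963, 4469, 2913 and 1175 CPM of these sums, while the other 3 globin genes stayed between 0 and 6.93 CPM.

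Glutathione synthesis showed no common direction. *Slc7a11*, the light chain of the cystine importer that feeds glutathione synthesis, rose, with 54.0 and 81.8 CPM in WT and 131 and 93.1 CPM in CD4/ALK4-KO. The groups lay close to each other, and the log2 fold change was 0.72 (SE 0.24, edgeR adjusted p = 0.022). It was 0.45 when WT replicate 1 was left out (edgeR adjusted p = 0.45) and 0.49 when CD4/ALK4-KO replicate 1 was (0.058), neither of them called, and was 1.05 in the absence of WT replicate 2. *Slc3a2*, which encodes the heavy chain of the same importer and is not one of the 43 genes, had a log2 fold change of -0.01.

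The 2 subunits of glutamate-cysteine ligase, the enzyme of the first and limiting step, lay on opposite sides of 0. The catalytic subunit gene *Gclc* had 36.8 and 29.3 CPM in WT and, from 512 and 543 counts, at most 44.0 CPM in CD4/ALK4-KO, where both libraries were above WT (log2 fold change 0.40, SE 0.23, edgeR adjusted p = 0.19). The modifier subunit gene *Gclm* had 45.8 and 52.6 CPM in WT and 37.2 and 28.8 CPM in CD4/ALK4-KO (log2 fold change -0.58, SE 0.23, edgeR adjusted p = 0.054). Neither passed the test. Counts of *Gclc* per count of *Gclm* were 0.803 and 0.557 in WT and 1.16 and 1.53 in CD4/ALK4-KO, again a pair chosen after its values were seen. Glutathione synthetase *Gss* (log2 fold change 0.01, SE 0.26), glutathione reductase *Gsr* (-0.05, SE 0.22) and glutaredoxin *Glrx* (-0.04, SE 0.21) had overlapping groups.

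Of the glutathione peroxidases, 4 fell. *Gpx1*, the abundant cytosolic selenoenzyme, had 1025 and 1121 CPM in WT and 807 and 598 CPM in CD4/ALK4-KO (log2 fold change -0.61, SE 0.21, edgeR adjusted p = 0.031). *Gpx4*, which reduces lipid peroxides in membranes and thereby guards against ferroptosis, had 181 and 168 CPM in WT and 92.9 and 97.5 CPM in CD4/ALK4-KO (log2 fold change -0.88, SE 0.21, edgeR adjusted p = 0.0027). Both libraries of each genotype were close together for *Gpx4*, whose level in CD4/ALK4-KO was 0.545 times that in WT. Its counts are uncertain, as 29.8% of its 75-base transcript stretches also occur in another gene, mainly the pseudogene *Gpx4-ps2*. *Gpx3*, a secreted peroxidase, had 25.0 and 17.6 CPM in WT and 9.83 and 9.31 CPM in CD4/ALK4-KO (log2 fold change -1.15, SE 0.28, edgeR adjusted p = 0.0034).

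*Gpx7* and *Gpx8* encode the peroxidases of the endoplasmic reticulum. *Gpx8* had 130 and 136 CPM in WT and 67.7 and 51.7 CPM in CD4/ALK4-KO (log2 fold change -1.16, SE 0.22, edgeR adjusted p = 0.00031). *Gpx7* had 28.7 and 27.6 CPM in WT and 36.3 and 22.1 CPM in CD4/ALK4-KO, where the CD4/ALK4-KO libraries lay on either side of WT (log2 fold change 0.05, SE 0.26). *Gpx8* was called in all 12 other settings, whereas *Gpx3* and *Gpx4* lost their calls without WT replicate 1 (edgeR adjusted p = 0.16 and 0.074) and *Gpx1* without WT replicate 1 (0.20) or WT replicate 2 (0.29).

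The glutathione transferases held the gene with the largest fall of the 43. *Mgst3*, a microsomal transferase with peroxidase activity, had 69.3 and 39.4 CPM in WT and 12.2 and 15.3 CPM in CD4/ALK4-KO. The WT libraries differed from each other, but both were above both CD4/ALK4-KO libraries, and the log2 fold change was -1.98 (SE 0.27, edgeR adjusted p = 8.6e-06), with extremes of -2.34 and -1.53 when single libraries were omitted. Its relatives were not called: *Mgst1* was at -0.56 (SE 0.23, edgeR adjusted p = 0.068) and *Mgst2*, which can make leukotriene C4, was higher in both CD4/ALK4-KO libraries at 0.39 (SE 0.27, edgeR adjusted p = 0.28).

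Among the cytosolic transferases, *Gsto1*, which also acts as a thiol transferase, had 205 and 185 CPM in WT and 110 and 78.8 CPM in CD4/ALK4-KO (log2 fold change -1.04, SE 0.22, edgeR adjusted p = 0.0010). The pi class gene *Gstp1* had 114 and 88.6 CPM in WT and 45.5 and 62.0 CPM in CD4/ALK4-KO (log2 fold change -0.92, SE 0.23, edgeR adjusted p = 0.0038). Its counts are uncertain, since 29.2% of its 75-base transcript stretches also occur in another gene, first of all the near-copy *Gstp2*. The mu class genes *Gstm5* (-1.17, SE 0.28, edgeR adjusted p = 0.0030), *Gstm2* (-0.78, SE 0.23, edgeR adjusted p = 0.011) and *Gstm1* (-0.59, SE 0.22, edgeR adjusted p = 0.042) fell, as did the alpha class gene *Gsta4* (-0.73, SE 0.26, edgeR adjusted p = 0.036), known for clearing the lipid peroxidation product 4-hydroxynonenal. *Gstt1* of the theta class was at -0.74 without passing the test (SE 0.29, edgeR adjusted p = 0.054). *Gsto1* and *Gstm5* were called in all 12 other settings. Without WT replicate 1, *Gstp1* (edgeR adjusted p = 0.14), *Gstm2* (0.26), *Gstm1* (0.39) and *Gsta4* (0.33) were not called. *Gstm2* (0.051), *Gstm1* (0.17) and *Gsta4* (0.12) were not called without WT replicate 2 either, and neither were *Gstm1* without CD4/ALK4-KO replicate 1 (0.085) and *Gsta4* without CD4/ALK4-KO replicate 2 (0.097).

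In the NRF2 arm, only the target *Nqo1* was called. *Nqo1* (chromosome 8, 107388225 to 107403206) encodes a quinone reductase often used to read out NRF2, and had 26.1 and 21.9 CPM in WT and 7.65 and 11.7 CPM in CD4/ALK4-KO. Both CD4/ALK4-KO libraries were below both WT libraries, with a log2 fold change of -1.31 (SE 0.29, edgeR adjusted p = 0.0013), and the call held in all 12 other settings. *Nfe2l2* itself had 284 and 266 CPM in WT and 231 and 221 CPM in CD4/ALK4-KO, a difference that did not pass the test (log2 fold change -0.29, SE 0.21, edgeR adjusted p = 0.33). *Keap1* had 45.2 and 31.9 CPM in WT and 35.5 and 36.7 CPM in CD4/ALK4-KO, with overlapping groups (log2 fold change -0.09, SE 0.23).

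Other targets of NRF2 were spread widely. *Hmox1*, the heme-degrading enzyme that is also abundant in macrophages, had 699 and 691 CPM in WT and 578 and 684 CPM in CD4/ALK4-KO (log2 fold change -0.14, SE 0.21, edgeR adjusted p = 0.66). Per length it was the third most abundant of the 43 genes in WT, at 397 RPKM. *Srxn1*, whose product sulfiredoxin restores overoxidized peroxiredoxins, had a log2 fold change of -0.45 (SE 0.22, edgeR adjusted p = 0.12). Classical targets placed in other arms ranged from *Txn1* (-1.41) and *Prdx1* (-0.77) through *Gclm* (-0.58) and *Txnrd1* (0.09) to *Slc7a11* (0.72).

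Because NRF2 acts through antioxidant response elements, the promoters of the 43 genes in RefSeq (GRCm38.p6) were searched for the core of this element, TGACNNNGC, on both strands. Each window held 300 bases, 250 before and 50 after a transcript start in RefSeq, and some genes had several windows. Of the 37 genes with a window, 9 (24.3%) held a match, against 14.0% of all genes with a window and 12.4% of all windows. Of the 9 genes with a match, 3 were called lower, namely *Prdx1*, *Sod1* and *Gstm5*, and of the 28 without a match 13 were called lower and 2 higher. The windows of *Txn1*, *Nqo1*, *Mgst3* and *Txnip* held no match. A match describes the letters only and was not tested as a binding site.

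The 250 bases before the start are shown 5′ to 3′ along the gene for the 3 genes called lower with a match, for *Txnrd1*, which had a match but was not called, and for *Txn1*, which fell without one. Capitals mark the match, and all matches except that of *Gstm5* are on the opposite strand, where the core reads GCNNNGTCA. The regions are chr4:116685349-116685598, plus strand for *Prdx1*, chr16:90220512-90220761, plus strand for *Sod1*, chr3:107895604-107895853, plus strand for *Gstm5*, chr10:82858956-82859205, plus strand for *Txnrd1*, which is 1 of its 3 windows, and chr4:57956412-57956661, minus strand for *Txn1*.
*Prdx1*: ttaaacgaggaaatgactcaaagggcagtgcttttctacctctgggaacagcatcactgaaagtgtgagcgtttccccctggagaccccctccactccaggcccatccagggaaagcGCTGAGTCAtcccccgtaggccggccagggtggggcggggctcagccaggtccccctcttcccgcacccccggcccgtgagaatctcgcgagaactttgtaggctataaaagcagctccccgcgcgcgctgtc
*Sod1*: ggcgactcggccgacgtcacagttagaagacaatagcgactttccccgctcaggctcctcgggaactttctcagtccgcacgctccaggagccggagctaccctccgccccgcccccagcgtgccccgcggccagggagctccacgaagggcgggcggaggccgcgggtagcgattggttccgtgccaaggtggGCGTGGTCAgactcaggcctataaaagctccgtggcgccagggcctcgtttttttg
*Gstm5*: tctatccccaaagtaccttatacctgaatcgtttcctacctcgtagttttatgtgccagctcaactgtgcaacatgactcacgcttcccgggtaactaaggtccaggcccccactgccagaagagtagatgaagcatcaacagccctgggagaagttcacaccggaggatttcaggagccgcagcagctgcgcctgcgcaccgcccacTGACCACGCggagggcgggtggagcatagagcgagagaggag
*Txnrd1*: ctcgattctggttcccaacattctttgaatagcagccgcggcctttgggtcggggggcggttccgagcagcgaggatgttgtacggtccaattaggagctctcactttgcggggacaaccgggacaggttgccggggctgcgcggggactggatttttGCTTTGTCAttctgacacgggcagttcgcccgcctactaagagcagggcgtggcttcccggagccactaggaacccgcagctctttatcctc
*Txn1*: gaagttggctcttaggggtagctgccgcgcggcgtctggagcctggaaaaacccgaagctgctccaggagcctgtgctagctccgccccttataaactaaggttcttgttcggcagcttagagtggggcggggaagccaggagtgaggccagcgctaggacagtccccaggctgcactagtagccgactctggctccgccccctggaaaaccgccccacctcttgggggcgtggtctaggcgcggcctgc
Counted back from the transcript start of the window shown, the first base of the match lay at -133 in *Prdx1*, -56 in *Sod1*, -42 in *Gstm5* and -92 in *Txnrd1*. For *Txnrd1* that start lies inside the gene, which begins at 82833951 in GENCODE M21.

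The dismutases convert superoxide to hydrogen peroxide, which catalase and the peroxidases remove. *Sod1*, the cytosolic enzyme, had 265 and 259 CPM in WT and 130 and 185 CPM in CD4/ALK4-KO and fell with a log2 fold change of -0.73 (SE 0.23, edgeR adjusted p = 0.016). Its fold change was -0.47 when CD4/ALK4-KO replicate 1 was omitted and -1.02 when replicate 2 of that genotype was, and its call was lost without WT replicate 1 (edgeR adjusted p = 0.16) and without WT replicate 2 (0.12). The mitochondrial *Sod2* (-0.38, SE 0.21) and the extracellular *Sod3* (-0.62, SE 0.29, edgeR adjusted p = 0.11) were lower in both CD4/ALK4-KO libraries but not called. *Cat* had 129 and 163 CPM in WT and 171 and 134 CPM in CD4/ALK4-KO, with overlapping groups (log2 fold change 0.06, SE 0.22). *G6pdx*, which makes NADPH for both thioredoxin and glutathione reductases, was close to level across libraries, with 135 and 134 CPM in WT and 128 and 133 CPM in CD4/ALK4-KO (log2 fold change -0.04, SE 0.21).

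A further 78 genes of the same pathways, listed beside the 43, were examined in the same fit, and 73 of them could be tested. Of these, 22 (30.1%) were called lower and 8 (11%) higher, against 15.4% and 17.4% of all genes tested. Their median log2 fold change was -0.29. The counts per list below stand beside the same shares over all genes, and no list was tested. Among 18 other thioredoxin-fold and methionine repair genes, 6 were called lower and 1 higher. The glutaredoxin gene *Glrx3* fell (-0.92, SE 0.26, edgeR adjusted p = 0.0083), as did *Txnl1* (-0.76) and the nucleoredoxin gene *Nxn* (-0.84). *Sesn3*, a sestrin induced by FOXO factors, rose from 14.7 and 21.2 CPM in WT to 64.1 and 69.5 CPM in CD4/ALK4-KO (log2 fold change 1.90, SE 0.24, edgeR adjusted p = 2.9e-06).

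Of 23 other glutathione genes tested, 8 were called lower and 3 higher, where all genes tested had 15.4% lower and 17.4% higher. *Ptges*, a prostaglandin E synthase of the same membrane protein family as *Mgst3*, fell with a log2 fold change of -1.44 (SE 0.27, edgeR adjusted p = 0.00035) and *Oplah*, which recycles 5-oxoproline to glutamate, with -1.48 (SE 0.29, edgeR adjusted p = 0.00038). *Gstp3* rose from 4.52 and 4.07 CPM in WT to 18.2 and 20.6 CPM in CD4/ALK4-KO (log2 fold change 2.17, SE 0.30, edgeR adjusted p = 1.0e-05), opposite to *Gstp1*. Of the most abundant, *Esd* fell (-0.83, SE 0.22, edgeR adjusted p = 0.0058), while *Abcc1* was at 0.14 and not called.

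Of 20 other NRF2 pathway genes, 5 were called lower and 3 higher, where all genes tested had 15.4% lower and 17.4% higher. *Bach2*, a repressor related to NRF2 that is expressed in resting T and B cells, had 3.28 and 3.84 CPM in WT and 23.4 and 27.6 CPM in CD4/ALK4-KO (log2 fold change 2.84, SE 0.30, edgeR adjusted p = 3.5e-07), beside the rise of the T cell markers to 5.26 times and of 8 B cell markers to 5.09 times their summed level in WT. The quinone reductase gene *Nqo2* fell with a log2 fold change of -1.06 (SE 0.22, edgeR adjusted p = 0.00072) and the biliverdin reductase gene *Blvrb* with -0.82 (SE 0.22, edgeR adjusted p = 0.0057). *Fth1*, the ferritin heavy chain and more abundant than any of the 43 genes by CPM, had 4260 and 4207 CPM in WT and 3022 and 2661 CPM in CD4/ALK4-KO (log2 fold change -0.58, SE 0.19, edgeR adjusted p = 0.020), while the light chain gene *Ftl1* was at -0.23 (SE 0.20) and not called. Of 12 other superoxide and NADPH genes, 3 were called lower and 1 higher. *Idh1*, the cytosolic isocitrate dehydrogenase that yields NADPH, fell (-0.81, SE 0.22, edgeR adjusted p = 0.0069), as did the mitochondrial transhydrogenase gene *Nnt* (-0.66, SE 0.22, edgeR adjusted p = 0.023). *Ncf1*, a subunit of the superoxide-producing phagocyte oxidase, rose (0.62, SE 0.22, edgeR adjusted p = 0.034), and *Taldo1*, *Pgd* and *Cybb* were not called (0.15, -0.20 and 0.39).

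Several lists of cell type markers moved with genotype as well, and their part in these results was not tested. Over all genes tested, 15.4% were called lower and 17.4% higher, and the counts per list below stand beside these shares. Fibroblast markers had 4 of 7 genes called lower and summed to 6712 and 7307 CPM in WT against 4773 and 3965 CPM in CD4/ALK4-KO. Epithelial markers had 5 of 10 tested genes called lower and 2 higher, with sums of 1006 and 978 CPM in WT and 650 and 518 CPM in CD4/ALK4-KO. *Rhox5* and *Plac1*, genes best known from placenta and germ line, summed to 318 and 362 CPM in WT and 42.1 and 50.3 CPM in CD4/ALK4-KO, 7.37 times higher in WT, while *Rhox6* and *Rhox9* were at 0 in all libraries. Of 11 macrophage markers *Csf1r* was called higher and the others were not called, and their sums were 6615 and 7529 CPM in WT and 6551 and 6301 CPM in CD4/ALK4-KO. The 9 neutrophil markers summed to 964 and 1473 CPM in WT and to 1573 and 977 CPM in CD4/ALK4-KO, which overlapped, with 3 called higher. Alveolar macrophage markers (6 genes, 1 called lower and 1 higher) summed to 697 and 843 CPM in WT and 529 and 426 CPM in CD4/ALK4-KO. *Chil3*, called lower, made up 538 and 717 CPM of these sums in WT and 405 and 301 CPM in CD4/ALK4-KO. *Siglecf* was called higher (log2 fold change 1.07). *Car4* (1.01), *Plet1* (0.21), *Ear2* (0.03) and *Marco* (-0.37) were not called. Of the less abundant lists, 6 dendritic cell markers had summed CPM of 78.4 and 79.2 in WT and 143 and 98.2 in CD4/ALK4-KO with 3 called higher and 1 lower. The 6 endothelial markers summed to 53.6 and 71.1 CPM in WT and 125 and 135 CPM in CD4/ALK4-KO. Their rise lay in *Pecam1* alone, called higher, with 22.5 and 42.7 CPM in WT and 106 and 108 CPM in CD4/ALK4-KO. *Cldn5* was called lower (log2 fold change -1.54). *Cdh5* (-0.67), *Tek* (-0.81), *Emcn* (-0.54) and *Kdr* (0.01) were not called.

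**Figure D3:**
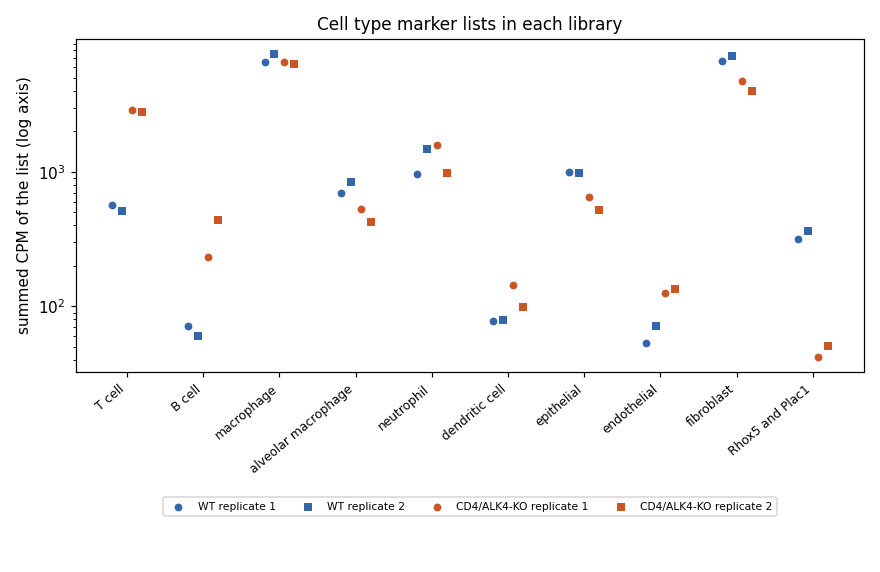
Summed CPM (log axis) of each cell type marker list in every library, with circles for replicate 1 and squares for replicate 2 of WT (blue) and CD4/ALK4-KO (orange). T cell markers were 5.26 times higher in CD4/ALK4-KO, fibroblast markers 0.623 times their WT level, and macrophage markers 0.909 times.

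Since the T cell share of the RNA differed, the fold changes were also computed with the libraries scaled to the 5 genes of the T cell receptor complex that the files list under the chosen symbols. On this scale the median gene moved by -2.20 on the log2 scale, and 12763 of the 13919 genes were called lower on it, among them all 43 antioxidant genes. *Txnip* and *Slc7a11*, called higher with TMM scaling, were at -1.26 and -1.51 there, and *Txn1* was at -3.60. *Mgst3* was lowest at -4.16. Such a rescaling moves every gene by about the same amount, so the order of the genes on it is no separate evidence.

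**Figure D4:**
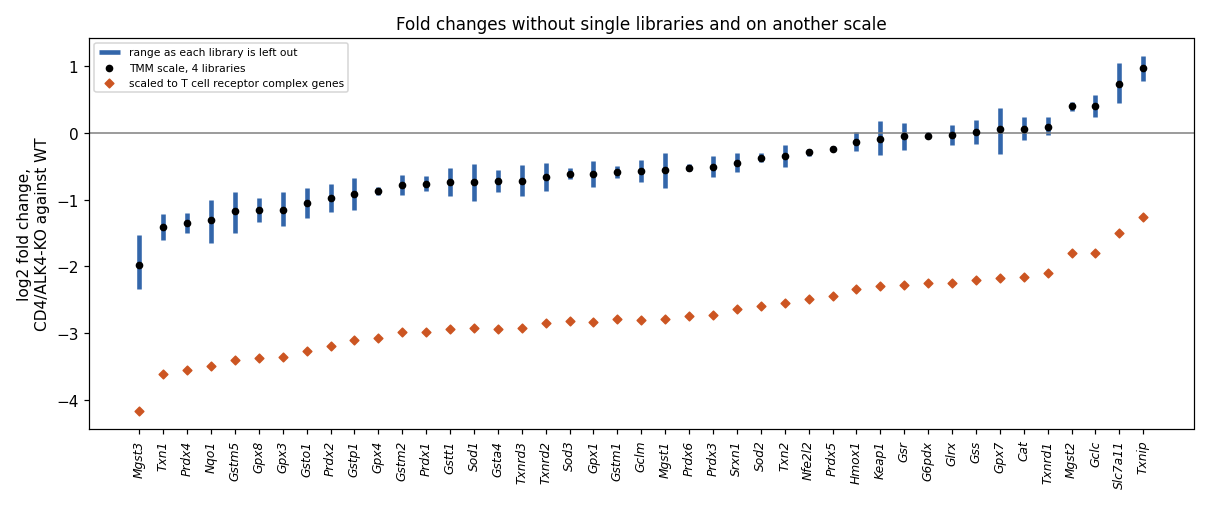
Log2 fold change of CD4/ALK4-KO against WT for the 43 genes ordered by their value with TMM scaling (black points), the range as each library was left out (blue bars) and the value with scaling to T cell receptor complex genes (orange diamonds). The diamonds all lie under 0, with a median shift of -2.20 over all genes, and the bars of *Mgst3*, *Txn1*, *Prdx4*, *Nqo1* and *Gpx8* stay below those of *Txnrd1*, *Gclc*, *Slc7a11* and *Txnip*.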

How the data were processed

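RNA-Seq libraries of lung tumor-infiltrating CD4+ T cells, 2 per genotype, were analysed. Per the labels and methods, the authors sequenced single-end reads of TruSeq RNA v2 libraries on a NextSeq500, aligned them to mm10 with HISAT2 and counted them per gene with HTSeq. The authors deposited raw counts per gene symbol as they were, neither normalized nor pooled. The versions, the annotation and the strand option are not given in the sources used here, and reads of antisense or overlapping genes may be mixed.

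Groups and replicate numbers came from the sample titles. Replicates differed beyond sampling noise (chi-square per degree of freedom 16.0 for WT and 28.7 in the case of CD4/ALK4-KO) and stayed separate samples, and p-values measure only the spread between them. Counts were filtered with filterByExpr, normalized with TMM and tested with the robust quasi-likelihood test of edgeR 4.0.16 in R 4.3.3, with genotype as the only term and Benjamini-Hochberg adjustment over 13919 genes. The common dispersion was 0.0357. SE was derived from the log2 fold change and its F statistic. RPKM used exon lengths of GENCODE M21 (GRCm38), which also gave gene positions and the stretches shared between transcripts. The code was tested on simulated data. All antioxidant genes were named. Of the other pathway genes, those with the highest mean CPM and, among called genes averaging 100 counts or more, those with the largest change were eligible, up to 3 of each per list. Members and lists were chosen with earlier results of these data known. Alternatives were DESeq2 1.42.0 size factors and its Wald test, upper quartile scaling, scaling to *Cd3d*, *Cd3e*, *Cd3g*, *Cd247* and *Trat1*, other filters, the likelihood ratio test, a replicate block and leaving out each library. Flow cytometry, ELISA and ChIP were not analysed here.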

Additional observations from a re-analysis of the deposited data

How the results depend on the processing

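Each genotype had 2 libraries. As each library was left out, the antioxidant genes had from 8 to 20 lower and from 0 to 2 higher calls by edgeR, the other pathway genes from 6 to 25 lower and from 4 to 11 higher, and all genes tested from 754 to 2618 lower and from 1103 to 2923 higher. Fewer samples were fitted in each case, and the lone library of a genotype was assumed to vary like the others. Median log2 fold changes then ran from -0.58 to -0.47 over the antioxidant genes, from -0.34 to -0.15 over the other pathway genes, from -0.60 to -0.33 over the thioredoxin system, from -0.77 to -0.56 over the peroxiredoxins, from -0.11 to 0.13 over glutathione synthesis and reduction, from -0.93 to -0.81 over the peroxidases, from -0.88 to -0.68 over the transferases, from -0.34 to -0.25 over the NRF2 arm and from -0.44 to -0.30 over the superoxide, catalase and NADPH arm. The log2 fold change changed sign within these ranges for *Keap1* (-0.33 to 0.17), *Cat* (-0.10 to 0.23), *Gss* (-0.16 to 0.18), *Gpx7* (-0.32 to 0.36), *Hmox1* (-0.27 to 0.0087), *G6pdx* (-0.078 to 0.016), *Txnrd1* (-0.036 to 0.23), *Gsr* (-0.25 to 0.14) and *Glrx* (-0.18 to 0.11), none of them called with TMM scaling and all 4 libraries. Scaling to T cell receptor complex genes gave 12763 lower and 41 higher calls over all genes, 43 and 0 over the antioxidant genes and 68 and 0 over the other pathway genes, a result of the scale itself. Medians were then -2.79 (antioxidant), -2.49 (other pathway), -2.70 (thioredoxin), -2.86 (peroxiredoxins), -2.23 (synthesis), -3.07 (peroxidases), -2.96 (transferases), -2.49 (NRF2) and -2.59 (superoxide), and signs turned for *Txnrd1* (-2.10), *Txnip* (-1.26), *Gclc* (-1.80), *Gss* (-2.20), *Slc7a11* (-1.51), *Gpx7* (-2.18), *Mgst2* (-1.81) and *Cat* (-2.16). Upper quartile scaling gave medians of -0.65 (antioxidant), -0.36 (other pathway) and -0.45 (superoxide), 23 lower calls, and values of -0.064 for *Gss*, -0.020 for *Gpx7* and -0.0080 for *Cat*. The median of the other pathway genes was -0.37 with no filter on low counts and -0.36 with DESeq2's Wald test. In these cases the cause was not tested. With DESeq2 size factors, either filter, DESeq2's Wald test or edgeR's likelihood ratio test, 17 to 19 antioxidant genes were called lower and 2 higher. Of the 17 genes called lower, 7 were called under all 12 settings, the block below included (*Txn1*, *Prdx4*, *Gpx8*, *Gstm5*, *Gsto1*, *Mgst3* and *Nqo1*), and neither of the 2 called higher was. Scaling to T cell receptor complex genes is among the 12, and it kept every lower call and lost every higher one. *Txnip* also lost its call without WT replicate 1. *Slc7a11* also lost its call with the replicate block, without WT replicate 1 and without CD4/ALK4-KO replicate 1.

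The replicate numbers are shared by both genotypes, but no label ties them to a litter or day, and differences between replicates 1 and 2 correlated at -0.21 between the genotypes, so they were not taken as a pairing. With the replicate number as a block, 11 antioxidant genes were called lower and 1 higher, and 13 and 5 of the other pathway genes. Over all genes tested that block gave 1444 lower and 1768 higher calls. With crossed pairs, chosen after seeing the data, the block gave 26 lower and 2 higher antioxidant calls. Calls over all genes tested rose as well, to 3037 lower and 3118 higher.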
